A study of Mus musculus with 6 samples.

Results

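The small leucine-rich proteoglycans are secreted matrix proteins with a short leucine-rich repeat core, and most of them carry glycosaminoglycan chains. Expression of 9 of their genes, Dcn, Lum, Bgn, Fmod, Ogn, Prelp, Aspn, Podn and Omd, was followed in the inguinal white adipose tissue (iWAT, the fat pad under the skin of the groin) of mice. The genes were chosen by name from a table of 54532 genes, and all 9 were found in it. RNA sequencing covered 3 libraries from mice given vehicle and 3 from mice given estrogen, and both groups were in the cold for 7 days. Cold can induce heat-producing beige adipocytes in this depot, and whether it did so in these mice was not tested. The series title describes the animals as old and aged, and its question is what estrogen does in beige adipocytes of such animals. Strain, sex, exact age, ovarian status, and the form, dose and route of estrogen are not given in the labels, and no group kept at room temperature was among the libraries analysed. Whether the 3 libraries of a group stem from 3 animals is not stated, and p-values therefore describe the spread among these libraries, part of which may be technical.

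Members of this family bind the surface of collagen fibrils, set how far fibrils grow sideways, and hold growth factors such as TGF-beta in the matrix. Decorin and biglycan, the proteins of Dcn and Bgn, are the class I members with chondroitin or dermatan sulfate chains, and released biglycan also acts on Toll-like receptors of immune cells. Lumican, fibromodulin, prolargin and osteomodulin (Lum, Fmod, Prelp and Omd) form class II and largely carry keratan sulfate or tyrosine sulfate instead. In fat, fibroblasts and adipocyte progenitors are the main source of these transcripts, and the proteins are part of the collagen mesh around adipocytes.

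Total counts lay between 16046601 and 20736771 per library, and no pair of libraries in a group agreed within sampling noise. The label of the tissue held, as the 10 adipocyte markers were detected in every group and summed to 27610 to 40677 CPM (a gene's count relative to its library's total, after trimmed mean of M values, or TMM, scaling) with vehicle and 39689 to 68143 CPM with estrogen. Of 8 mammary and skin epithelium markers, 2 were at 0 in every library and the sum was 3.86 CPM at most. Estrogen replicate 1 held 8615 CPM of 8 skeletal muscle markers, against 73.8 CPM or less elsewhere. Estrogen replicates 1 and 3 held 160 and 106 CPM of 7 B cell markers, against 7.33 CPM or less elsewhere. These are bulk samples, so fewer cells of a type and less RNA per cell cannot be told apart.

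With estrogen, all 9 genes had negative log2 fold changes, from -2.34 for Aspn to -0.06 for Podn, and none passed the test across all genes. Their median was -1.26, which is 2.40-fold lower, against 0.0025 for all 15591 genes that passed the low-count filter, of which 49.7% were negative. Aspn, Bgn, Omd, Lum and Ogn made up the lower end, Dcn, Fmod and Prelp were 1.68- to 1.95-fold lower, and Podn differed by less than its spread between libraries. All 9 genes passed that filter. Summed over the family, the libraries held 1740, 3645 and 2312 CPM with vehicle and 1487, 1385 and 730.1 CPM with estrogen. Each of the 3 estrogen sums was thus under each of the 3 vehicle sums, and the family took 0.272 ± 0.101% of all counts with vehicle and 0.115 ± 0.0451% with estrogen (SD, n = 3).

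By edgeR's quasi-likelihood test with Benjamini-Hochberg adjustment, 0 of 9 members were called lower, as were 0 of all tested genes (0%), and the smallest adjusted p of any gene was 0.207. At an unadjusted p under 0.05, 6 of 9 members were lower (Dcn, Lum, Bgn, Ogn, Aspn and Omd), where 10.9% of all tested genes were lower and 9.49% higher. For 4 of 9 members (Lum, Bgn, Ogn and Aspn) every estrogen library was below every vehicle library, where 14.7% of all tested genes were. DESeq2 called the same 4 genes lower, with adjusted p of 0.00964 for Lum, 0.0108 for Bgn, 0.0448 for Ogn and 0.00173 for Aspn, and called 3.34% of all genes lower. These DESeq2 calls depended on single libraries. Without vehicle replicate 2 only Aspn was called (0.13% of all genes called lower), without estrogen replicate 3 only Lum and Bgn (1.31%), and without both libraries Lum, Bgn and Aspn (0.322%). At an unadjusted p under 0.05, edgeR left 3 members lower when vehicle replicate 2 was omitted, where 5.04% of all genes tested in that fit were lower. It left 4 when estrogen replicate 2 (10% of all genes), estrogen replicate 3 (7.6%), or vehicle replicate 2 together with estrogen replicate 3 (5.22%) was omitted. The members' median was -0.77 without vehicle replicate 2 and -0.50 without both.

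**Figure D1:**
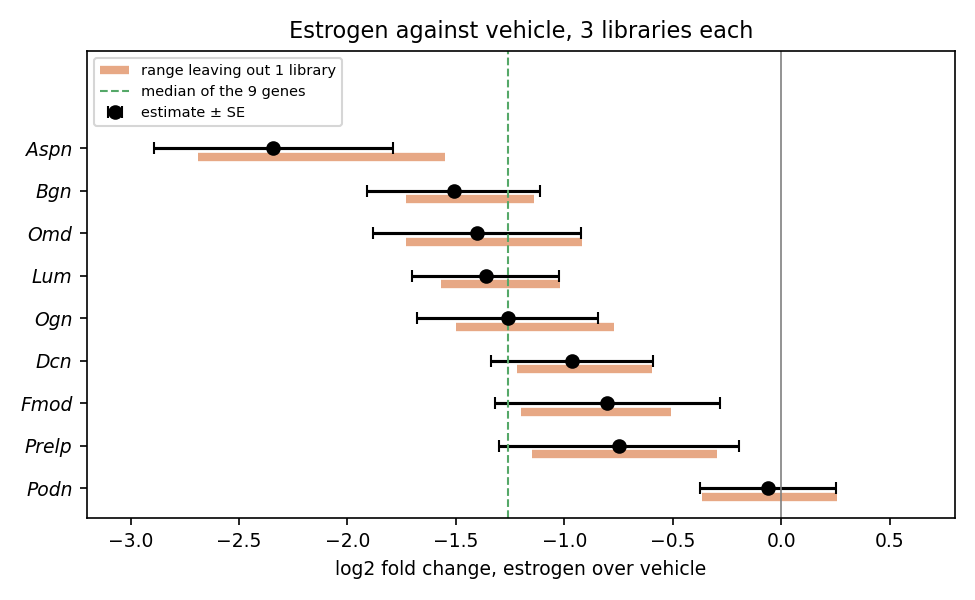
Log2 fold change of each of the 9 genes, estrogen over vehicle (horizontal axis), as the edgeR estimate with its SE (points and bars, 3 libraries per group), with the range over fits that leave out 1 library (orange) and the median of the 9 estimates (dashed). Estimates run from -2.34 for Aspn to -0.06 for Podn, and only the range of Podn crosses 0.

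Levels between genes were compared per length, as TMM-scaled CPM per kilobase of the deposited gene length. On that scale Dcn was the highest of the 9 in 6 of 6 libraries, at 187 ± 78.3 CPM per kb with vehicle and 95.6 ± 32.6 with estrogen (SD, n = 3). Bgn (102 ± 40.7 with vehicle), Lum (92.3 ± 34.8), Prelp (78.1 ± 14.1), Ogn (58.0 ± 29.2), Aspn (42.6 ± 31.6) and Podn (19.8 ± 7.08) followed. Fmod (1.61 ± 0.890) and Omd (1.60 ± 0.870) were far below. Most neighbours in this order did not differ beyond their spread: Lum exceeded Prelp in 3 of 6 libraries, Prelp exceeded Ogn in 4 of 6, and Aspn exceeded Podn in 2 of 6. The step from Podn to Fmod was the one where neither group's ranges overlapped.

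**Figure D2:**
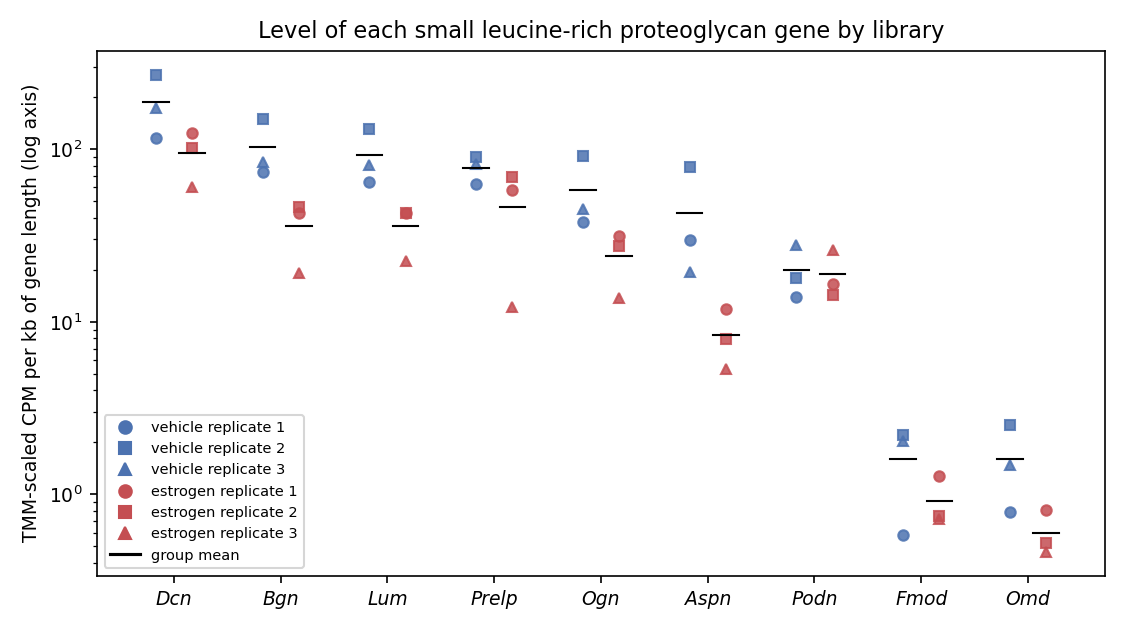
Level of each gene in each library, as TMM-scaled CPM per kb of gene length on a log axis, for 3 vehicle (blue) and 3 estrogen (red) libraries, with the group mean as a bar. Lum, Bgn, Ogn and Aspn show every red point under every blue point, and the points of Podn are mixed.

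Among the class I genes, Dcn encodes decorin, the best studied binder of collagen fibrils and a sink for TGF-beta and several receptor tyrosine kinases (ENSMUSG00000019929, chr10:97479609-97518143, + strand, mm10). It was at 675, 1579 and 1013 CPM in vehicle replicates 1, 2 and 3 and at 726, 597 and 351 CPM in estrogen replicates 1, 2 and 3. The groups overlapped, because vehicle replicate 1 was below estrogen replicate 1, and vehicle replicate 2 was the highest of all. The log2 fold change was -0.96 ± 0.37 (SE), 1.95-fold lower, with adjusted p = 0.223 by edgeR and 0.0876 by DESeq2, and without vehicle replicate 2 it was -0.60.

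Bgn encodes biglycan, the closest relative of decorin (ENSMUSG00000031375, chrX:73483602-73495933, + strand). Its level was 451, 909 and 515 CPM with vehicle and 260, 281 and 116 CPM with estrogen. Every estrogen library was under every vehicle library, with vehicle replicate 2 and estrogen replicate 3 at the extremes. Its log2 fold change was -1.51 ± 0.40, 2.85-fold lower (edgeR adjusted p = 0.207), and ran from -1.73 to -1.14 when 1 library was left out.

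Aspn encodes asporin, a class I relative without a glycosaminoglycan attachment site that binds collagen and TGF-beta (ENSMUSG00000021388, chr13:49544443-49567565, + strand). It was at 70.1, 185 and 45.9 CPM with vehicle and 28.1, 18.6 and 12.5 CPM with estrogen. The vehicle libraries spread widely around their mean of 100 ± 74.3 CPM, yet the lowest of them stayed above the highest estrogen library. This was the largest difference of the 9, with a log2 fold change of -2.34 ± 0.55, 5.07-fold lower (edgeR adjusted p = 0.207), and without vehicle replicate 2 it was -1.55.

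Of the class II genes, Lum encodes lumican, which spaces collagen fibrils and presents bacterial products to Toll-like receptors (ENSMUSG00000036446, chr10:97565128-97572703, + strand). The libraries held 158, 322 and 199 CPM with vehicle and 104, 104 and 55.4 CPM with estrogen. The groups did not overlap, and estrogen replicates 1 and 2 were nearly equal. Lum differed by a log2 fold change of -1.36 ± 0.34, 2.57-fold lower (edgeR adjusted p = 0.207), between -1.57 and -1.02 with 1 library left out.

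Prelp encodes prolargin, which links basement membrane heparan sulfate to collagen (ENSMUSG00000041577, chr1:133910304-133921414, - strand). It stood at 226, 325 and 296 CPM with vehicle and at 211, 249 and 43.9 CPM with estrogen. Estrogen replicates 1 and 2 were close to vehicle replicate 1, and estrogen replicate 3 stood alone far below. The log2 fold change of -0.75 ± 0.55 (edgeR adjusted p = 0.457, DESeq2 0.393) rested on that library and was -0.29 without it, while without estrogen replicate 2 it was -1.15. Its limma-voom estimate was -1.09.

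Fmod encodes fibromodulin, which shares collagen binding with lumican and guides cross-linking by lysyl oxidase (ENSMUSG00000041559, chr1:134037254-134048277, + strand). It was low, at 1.93, 7.29 and 6.72 CPM with vehicle and 4.25, 2.49 and 2.37 CPM with estrogen, from 34 to 155 counts per library. Vehicle replicate 1 was the lowest library of all, so the groups overlapped. The log2 fold change was -0.80 ± 0.52 (edgeR adjusted p = 0.396), and it was -0.51 without vehicle replicate 2 and -1.20 without vehicle replicate 1.

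Omd encodes osteomodulin, best known from bone and teeth (ENSMUSG00000048368, chr13:49582462-49592822, + strand). It was the lowest by CPM, at 1.78, 5.67 and 3.34 CPM with vehicle and 1.81, 1.18 and 1.04 CPM with estrogen, from 15 to 112 counts per library, above the level that 3 counts give (0.130 to 0.209 CPM). Vehicle replicate 1 and estrogen replicate 1 were at nearly the same level. The log2 fold change was -1.40 ± 0.48, 2.64-fold lower (edgeR adjusted p = 0.208, DESeq2 0.0850), and -0.92 without vehicle replicate 2.

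Ogn, the class III member, encodes osteoglycin, also called mimecan (ENSMUSG00000021390, chr13:49608046-49624501, + strand). It was at 97.3, 235 and 115 CPM with vehicle and 80.7, 70.3 and 35.3 CPM with estrogen. The groups did not overlap, but vehicle replicate 1 lay close to estrogen replicate 1. Its log2 fold change was -1.26 ± 0.42 (edgeR adjusted p = 0.207), and -0.77 without vehicle replicate 2.

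Podn encodes podocan, a more distant family member that is found in vessel walls and smooth muscle (ENSMUSG00000028600, chr4:108014791-108096445, - strand). It was at 59.5, 76.5 and 118 CPM with vehicle and 70.8, 61.0 and 112 CPM with estrogen. The groups covered nearly the same range, with vehicle replicate 3 and estrogen replicate 3 high. The log2 fold change was -0.06 ± 0.31 (edgeR adjusted p = 0.926), and its sign changed when vehicle replicate 3 (0.25), estrogen replicate 1 (0.0082) or estrogen replicate 2 (0.11) was left out. The 8 mural cell markers, genes of smooth muscle and pericytes, summed to 459 to 732 CPM with vehicle and 478 to 490 CPM with estrogen, and their part in the level of Podn was not tested.

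Relative to each gene's mean over the 6 libraries, vehicle replicate 2 was the highest library for 8 of 9 genes, all but Podn. Estrogen replicate 3 was the lowest for 7 of 9, all but Fmod and Podn. On average the 9 genes lay at 0.01, 1.16 and 0.54 log2 units in vehicle replicates 1 to 3 and at -0.17, -0.42 and -1.12 in estrogen replicates 1 to 3. Prelp in estrogen replicate 3 (-2.13) and Aspn in vehicle replicate 2 (2.22) were the farthest from their means. Podn ran the other way in estrogen replicate 3, at 0.49.

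**Figure D3:**
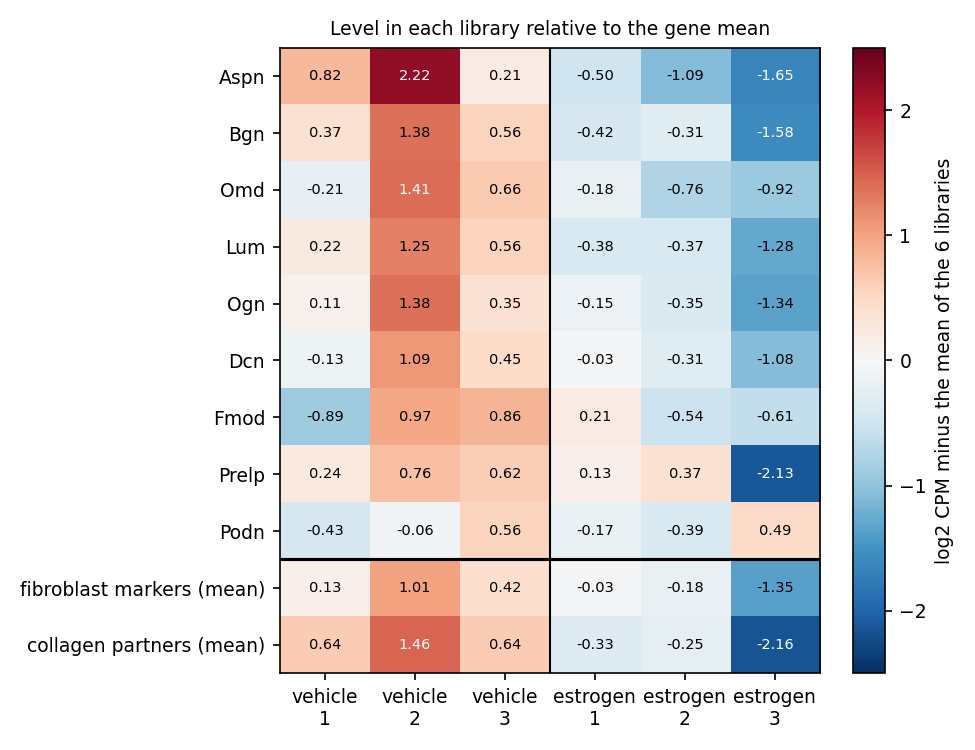
Log2 CPM of each gene in each library minus the gene's mean over the 6 libraries (colour and printed value), with the mean of 18 fibroblast and progenitor markers and of 19 collagen fibril partners in the lower rows. Vehicle replicate 2 is high and estrogen replicate 3 low in most rows, and Podn is the exception at -0.06 and 0.49.

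The likeness of these centred profiles was measured as the root mean square (RMS) difference over the 6 libraries, which share their library effects, and it is given as a description. Lum and Bgn (0.15 log2 units) and Lum and Ogn (0.15) were the nearest pairs, and Aspn and Podn (1.42) the farthest. Against the mean of the other 8 genes, Dcn (0.12), Lum (0.16) and Ogn (0.18) were nearest, and Prelp (0.64), Aspn (0.76) and Podn (0.95) farthest. Outside the family, the 5 genes nearest to the members' mean profile, of 9974 genes whose mean log2 CPM was 3 or more, were Dpt, Thbd, Plau, C1s1 and Fap, with RMS differences of 0.11 to 0.12, where the median gene was at 0.75. Dpt encodes dermatopontin, a matrix protein that binds decorin, and is also 1 of the 18 fibroblast and progenitor markers used here. Fap encodes fibroblast activation protein, Plau the urokinase protease, Thbd thrombomodulin and C1s1 a complement protease. Their log2 fold changes were -1.04 for Dpt, -0.97 for Thbd, -0.98 for Plau, -0.97 for C1s1 and -1.13 for Fap (edgeR adjusted p of 0.207 to 0.220).

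The make-up of the family was compared by level per length. Dcn held 28.9, 32.5 and 33.6% of the summed level with vehicle and 37.7, 32.9 and 37.5% with estrogen. Bgn held 18.5, 17.9 and 16.3% with vehicle and 12.9, 14.8 and 11.9% with estrogen, without overlap. Lum (15.7 to 16.1% against 12.9 to 14.1%) and Aspn (3.77 to 9.42% against 2.54 to 3.62%) did not overlap either, and the groups of the other 6 genes did. Podn held 2.15 to 5.36% in the vehicle libraries, 5.02 and 4.60% in estrogen replicates 1 and 2, and 16.3% in estrogen replicate 3. In that library Podn ranked 2 of the 9 genes, against 6 or 7 elsewhere, and Prelp held 7.57%, its lowest share of the 6 libraries.

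**Figure D4:**
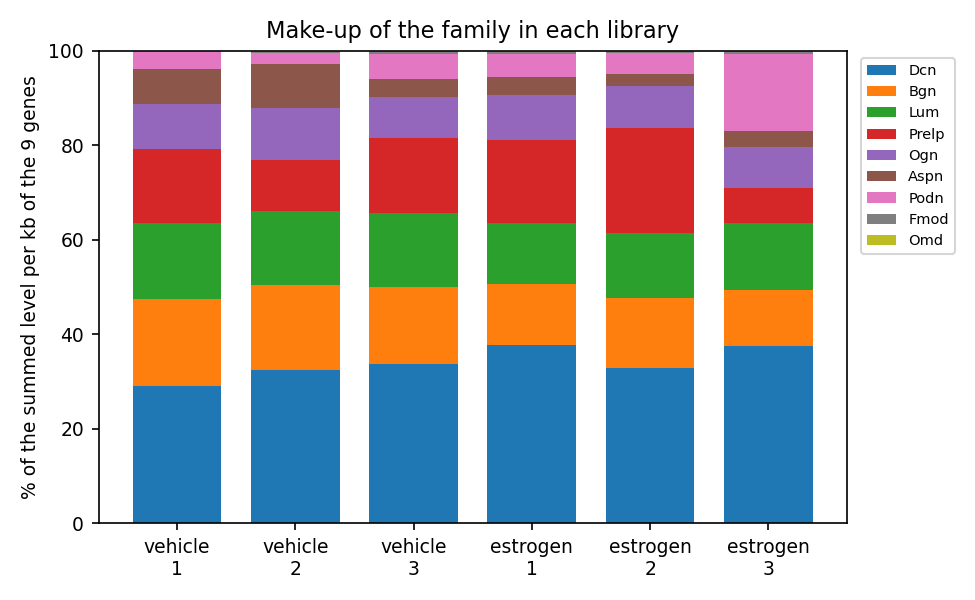
Share of each gene in the summed level per kb of the 9 genes (vertical axis, %), 1 bar per library. Dcn is the largest share in all 6 bars, and estrogen replicate 3 differs from the other bars by its share of Podn (16.3%) and of Prelp (7.57%).

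Because every gene is scaled by the same library factor, ratios between genes do not depend on the scaling. Relative to Dcn, 3 of the other 8 genes had every estrogen library below every vehicle library, namely Lum (by -0.41 log2 units), Bgn (-0.60) and Aspn (-1.23). Ogn (-0.29), Omd (-0.36), Prelp (-0.14), Fmod (0.30) and Podn (0.89) overlapped. The share of all tested genes without overlap was not computed, either for the ratios here and below or for the make-up shares. The exact two-sided permutation p was 0.1 for each of the 3 genes, the smallest that 3 against 3 libraries can give, and 0.267 after Benjamini-Hochberg adjustment over the 8 ratios. With 1 library left out, the differences ranged from -0.49 to -0.34 for Lum, from -0.75 to -0.50 for Bgn and from -1.65 to -0.97 for Aspn, and that of Podn was 0.33 without estrogen replicate 3. The Prelp difference was 0.35 without estrogen replicate 3, and that of Fmod was -0.01 without vehicle replicate 1.

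Fibroblast and progenitor markers were lower in the same libraries. Of the 18 markers, 17 were negative with a median log2 fold change of -1.01. At an unadjusted p under 0.05, 8 were lower, where 10.9% of all tested genes were. By edgeR 0 were called, and DESeq2 called 3 lower, where it called 3.34% of all genes lower. Their mean log2 CPM was 6.89, 7.78 and 7.18 with vehicle and 6.73, 6.59 and 5.42 with estrogen, and no marker was at 0 in all libraries. Their summed level, which a few abundant markers dominate, was 6471 to 11644 CPM with vehicle and 6780 to 7204 CPM with estrogen. Pdgfra, the receptor that marks adipocyte progenitors, was at 98.4, 146 and 90.5 CPM with vehicle and 77.8, 60.2 and 35.9 CPM with estrogen (log2 fold change -0.94 ± 0.31, edgeR adjusted p = 0.207).

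Relative to the mean of those 18 markers, Dcn differed by 0.10 log2 units, Prelp by -0.04 and Ogn by -0.20, all with overlapping groups. Lum (-0.32), Bgn (-0.51) and Aspn (-1.13) had every estrogen library below every vehicle library (exact two-sided permutation p = 0.1 for each, 0.3 after adjustment over the 9 ratios). For Lum the gap was narrow, with estrogen replicate 3 at 0.38 and vehicle replicate 1 at 0.41. Podn differed by 0.99 and overlapped, with estrogen replicate 3 at 1.39 and the vehicle libraries from -1.52 to -0.30. Relative to Pdgfra alone, Aspn (-1.19) was the only one of the 9 whose groups did not overlap. How far the level of fibroblasts sets the levels of the 9 genes was not tested.

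Relative to the mean of 19 collagen fibril partners, the differences were mostly positive. That mean was 8.22, 9.04 and 8.22 log2 CPM with vehicle and 7.25, 7.33 and 5.42 with estrogen, a difference of -1.83. Dcn (0.89) and Prelp (0.75) lay above it in every estrogen library compared with every vehicle library (exact two-sided permutation p = 0.1, adjusted 0.3), and the other 7 overlapped. Estrogen replicate 3, where the collagen mean was lowest, added to most of these differences: without it Dcn was at 0.56, Lum at 0.15 instead of 0.47, and Bgn at 0.07 instead of 0.28. Prelp went the other way, to 0.92 without that library. For Prelp the gap between the groups was narrow, with estrogen replicate 3 at 0.037 and vehicle replicate 3 at -0.0052. Aspn, at -0.34, was the only one with a negative difference.

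**Figure D5:**
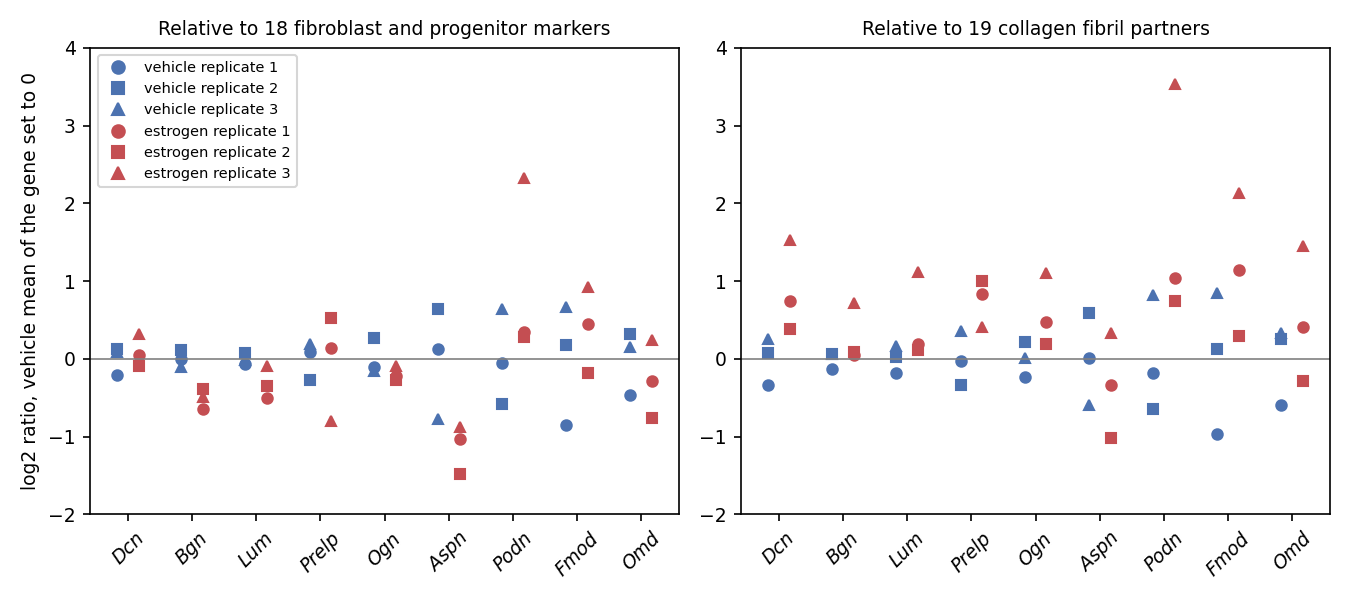
Log2 ratio of each gene to the mean of 18 fibroblast and progenitor markers (left) and of 19 collagen fibril partners (right) in each library, with the vehicle mean of each gene set to 0. On the left, the estrogen points of Lum, Bgn and Aspn lie below all vehicle points of the same gene, and on the right those of Dcn and Prelp lie above.

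Markers of other cell types were summed in the same libraries. Of the 10 adipocyte markers, 9 had positive log2 fold changes, with a median of 0.57. Their sum was 34151, 27610 and 40677 CPM with vehicle and 39993, 39689 and 68143 CPM with estrogen, with overlap. It was thus lowest in vehicle replicate 2 and highest in estrogen replicate 3. The 8 macrophage markers summed to 1970 to 2765 CPM with vehicle and 480 to 1477 CPM with estrogen, and 8 of 8 were negative. The 8 endothelial markers summed to 489 to 726 and 619 to 819 CPM, with overlapping groups. The 8 tendon and fascia markers, a tissue rich in these proteoglycans, summed to 43.5, 251 and 88.9 CPM with vehicle and 63.1, 23.8 and 14.7 CPM with estrogen, again with overlap. Vehicle replicate 2, the library highest for 8 of the 9 genes, was thus also the highest for the sum of these fascia markers. This was not particular to fascia. That library also had the highest sums of fibroblast and progenitor markers (11644 CPM), macrophage markers (2765 CPM) and collagen fibril partners (54870 CPM). The adipocyte and endothelial sums were instead highest in estrogen replicate 3 (68143 and 819 CPM). The fascia sum was led by Cilp, at 189 CPM in vehicle replicate 2 against 5.78 to 62.7 CPM elsewhere. Comp, of the same list, was instead lowest in that library, at 2.12 CPM against 2.37 to 10.1 CPM elsewhere. Of the 5 tested fascia markers, 4 had negative log2 fold changes and Scx a positive one (0.67). The 8 chondrocyte and bone markers summed to 5.95 to 9.61 CPM over all 6 libraries. Of the 2 that were tested, Sox9 had a negative log2 fold change (-1.63) and Alpl a positive one (0.50). The part of these cells in the levels of the 9 genes was not tested.

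Most of these genes lie in clusters in the mouse genome. On chromosome 10, Dcn and Lum are followed by Kera and Epyc, all on the + strand within 202.8 kb. On chromosome 13, Ecm2, Aspn, Omd and Ogn lie on the + strand within 119.7 kb, with gaps of 11.7 to 15.2 kb. On chromosome 1, Optc and Prelp on the - strand lie 2.3 kb apart and Fmod on the + strand 115.8 kb further, while Bgn and Podn have no such neighbour here. Not every gene of a cluster was expressed. Kera, the keratocan gene of the cornea, had 2 counts at most in any library, Epyc 4 and Optc 11, and all 3 were too low to test. Ecm2, which neighbours Aspn, was at 12.6, 20.9 and 19.3 CPM with vehicle and 12.2, 11.4 and 6.69 CPM with estrogen, without overlap (log2 fold change -0.80 ± 0.29, edgeR adjusted p = 0.212, DESeq2 0.109). Within the chromosome 13 cluster the log2 fold changes were thus -0.80 for Ecm2, -2.34 for Aspn, -1.40 for Omd and -1.26 for Ogn. Of the 9 genes, Prelp overlapped Gm15851 by 350 exon bases, and Aspn overlapped Cenpp by 7. Further overlaps of these genes, if any, were not recorded. Gm15851 and Cenpp had at most 14 and 28 counts, against 631 and 180 or more for Prelp and Aspn.

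The RefSeq promoter table (GRCm38.p6) held windows for 7 of the 9 genes, 8 windows in all because Podn has 2 starts, and none for Dcn and Lum. The 250 bases before the start differ widely in base composition. GC content was 30.0% for Aspn, 38.4% for Omd and 42.0% for Ogn, the neighbours on chromosome 13, then 51.2% for Fmod, 55.6% for Prelp and 64.4% for Bgn, with 78.0% and 64.0% at the starts of Podn. The median of all 32851 windows was 52.4%. CpG dinucleotides numbered 2 for Aspn, 1 for Omd, 4 for Ogn, 7 for Bgn and 32 at the first start of Podn, where the median window had 6. The windows of Aspn, the gene with the largest difference, of Ogn and Bgn, whose groups did not overlap either, and of Podn, whose groups covered nearly the same range, are shown 5′ to 3′ on the gene's strand with CpG dinucleotides in capitals.
Aspn, chr13:49544193-49544442 (+ strand): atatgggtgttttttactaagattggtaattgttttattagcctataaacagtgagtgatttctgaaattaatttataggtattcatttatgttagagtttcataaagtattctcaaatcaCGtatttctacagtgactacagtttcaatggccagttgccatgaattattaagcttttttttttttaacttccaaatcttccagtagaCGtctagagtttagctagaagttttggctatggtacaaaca
Ogn, chr13:49607765-49608014 (+ strand): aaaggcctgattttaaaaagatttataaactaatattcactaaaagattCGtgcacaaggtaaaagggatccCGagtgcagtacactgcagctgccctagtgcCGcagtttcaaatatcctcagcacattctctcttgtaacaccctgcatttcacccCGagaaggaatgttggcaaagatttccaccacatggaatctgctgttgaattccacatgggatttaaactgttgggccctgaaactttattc
Bgn, chrX:73483351-73483600 (+ strand): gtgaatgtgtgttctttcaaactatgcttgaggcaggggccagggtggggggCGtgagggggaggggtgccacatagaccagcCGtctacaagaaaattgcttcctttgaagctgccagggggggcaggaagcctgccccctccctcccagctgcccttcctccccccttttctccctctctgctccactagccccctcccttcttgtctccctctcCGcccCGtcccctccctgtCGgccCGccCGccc
Podn, chr4:108031955-108032204 (- strand): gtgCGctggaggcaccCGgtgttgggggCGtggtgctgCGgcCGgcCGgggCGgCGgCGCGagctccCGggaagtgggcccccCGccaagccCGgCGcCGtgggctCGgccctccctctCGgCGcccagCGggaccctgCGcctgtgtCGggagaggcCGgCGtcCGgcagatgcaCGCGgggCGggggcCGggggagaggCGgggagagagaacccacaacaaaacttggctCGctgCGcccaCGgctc
Ogn's RefSeq start lies slightly upstream of the gene start in the deposited table. Both RefSeq starts of Podn lie inside the deposited span of that gene, far from its 5′ end at 108096445 on the - strand. The Podn windows are therefore not at the deposited gene start. On both strands, the palindromic estrogen response element GGTCANNNTGACC was in 0 of the 8 windows and in 0.0639% of all windows. The shorter site AGGTCA, 1 arm of that element, was in 2 of 8, 80 bases before the start of Omd and 134 before the second start of Podn, and in 14% of all windows. The AP-1 site TGANTCA was in 0 of 8 (6.75% of all), the TEAD site GGAATG in 1 of 8 (12.6%), 86 bases before the start of Ogn, and the TATA box TATAAA in 2 of 8 (12.4%), Aspn and Ogn, at least 178 bases before the start in each. These are matches of letters in a short window and say nothing of binding.

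Of the other family members and cluster neighbours, 5 of 9 were tested. Ecm2 was the 1 member lower at an unadjusted p under 0.05, where 10.9% of all tested genes were, and neither edgeR nor DESeq2 called any. Tsku, which encodes tsukushi, a secreted modulator of BMP and Wnt signals, had a log2 fold change of -0.88 ± 0.39 (edgeR adjusted p = 0.255) and of -0.58 without vehicle replicate 2. Chad, which encodes chondroadherin, was at -0.12 ± 0.41, and at 0.16 without estrogen replicate 3 and -0.46 without estrogen replicate 2.

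The enzymes that build and sulfate the glycosaminoglycan chains were mixed. Of 34 tested genes, 24 were negative and 10 positive with a median log2 fold change of -0.26. By edgeR 0 were called. At an unadjusted p under 0.05, 8 were lower and 2 higher, where 10.9% and 9.49% of all tested genes were. DESeq2 called 3 lower and 1 higher, where it called 3.34% of all genes lower and 2.75% higher. Xylt1, 1 of the 2 xylosyltransferases that start the chains, was at 18.2, 16.8 and 17.4 CPM with vehicle and 12.8, 10.7 and 8.01 CPM with estrogen. The vehicle libraries were tight and the groups did not overlap (log2 fold change -0.73 ± 0.19, edgeR adjusted p = 0.207, DESeq2 0.0405). Xylt2, the other one, was at 43.3 ± 3.01 CPM with vehicle and 45.3 ± 1.07 CPM with estrogen (SD, n = 3), a log2 fold change of 0.06 ± 0.10 (edgeR adjusted p = 0.735). Csgalnact1, which starts chondroitin chain growth, was at -0.92 ± 0.25 (DESeq2 adjusted p = 0.0410). Chst3, a chondroitin sulfotransferase, was at 11.1 and 7.10 CPM in estrogen replicates 1 and 3 and at 0.589 to 0.810 CPM in the other 4 libraries (log2 fold change 3.09 ± 0.90, DESeq2 adjusted p = 0.0115). Those 2 libraries were the ones with B cell markers above 100 CPM, and the part of those cells was not tested.

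All 19 tested collagen fibril partners, the collagens and matrix proteins that this family binds, had negative log2 fold changes with a median of -1.60. In 16 of them every estrogen library was below every vehicle library, where 14.7% of all tested genes were. Lower at an unadjusted p under 0.05 were 13, where 10.9% of all tested genes were. By edgeR 0 were called, and DESeq2 called 8 lower, where it called 3.34% of all genes lower. Col1a1, the main chain of type I collagen, was at 4724, 11338 and 3182 CPM with vehicle and 1197, 2395 and 162 CPM with estrogen (log2 fold change -2.36 ± 0.91, edgeR adjusted p = 0.222). Col3a1 was at -2.06 ± 0.81 and Col6a1, a chain of the type VI collagen that binds decorin and biglycan, at -1.56 ± 0.56. Thbs1 (-2.30 ± 0.50), Eln (-1.84 ± 0.45) and Col12a1 (-3.11 ± 0.83) had the smallest p in this list (edgeR adjusted p = 0.207 for each). Without vehicle replicate 2, Eln was at -1.15 and Col6a1 at -1.04.

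Ligands held by the family had a median log2 fold change of -0.75 over 16 tested genes, 13 of them negative. At an unadjusted p under 0.05, 7 were lower and 2 higher, where 10.9% and 9.49% of all tested genes were. By edgeR 0 were called, and DESeq2 called 2 lower and 1 higher, where it called 3.34% and 2.75% of all genes. Tgfb1, the growth factor bound by decorin, biglycan and fibromodulin, was at 76.8, 71.8 and 60.2 CPM with vehicle and 45.5, 65.1 and 36.4 CPM with estrogen. Its groups overlapped through estrogen replicate 2 (log2 fold change -0.51 ± 0.22, edgeR adjusted p = 0.251), and it was at -0.33 without estrogen replicate 3 and at -0.77 without estrogen replicate 2. Ctgf (-1.94 ± 0.25) and Wisp1 (-2.81 ± 0.84), matricellular proteins of 1 family that bind decorin, were the lowest by p. Vegfa, the vessel growth factor, was higher in every estrogen library (0.61 ± 0.19), where 12.8% of all tested genes had every estrogen library above every vehicle library, and was at 0.39 without estrogen replicate 3.

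Receptors that bind these proteins had a median of -0.50 over 18 genes, 16 of them negative. In 11 every estrogen library was below every vehicle library, where 14.7% of all tested genes were. At an unadjusted p under 0.05, 8 were lower and 1 higher, where 10.9% and 9.49% of all tested genes were. By edgeR 0 were called, and DESeq2 called 3 lower, where it called 3.34% of all genes lower. Tlr2, a Toll-like receptor that soluble biglycan engages, was at 25.2, 21.9 and 13.7 CPM with vehicle and 7.52, 8.64 and 3.76 CPM with estrogen (log2 fold change -1.60 ± 0.35, edgeR adjusted p = 0.207). Tlr4 was at -0.58 ± 0.21, its co-receptor gene Cd14 at -1.21 ± 0.32 and P2rx7, the ATP-gated channel gene, at -0.94 ± 0.29. Tlr4 was at -0.37 without estrogen replicate 3. These 4 are also genes of macrophages, whose markers were lower in every estrogen library as a sum, and the part of those cells was not tested.

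The list of proteases that process or cleave the family had a median of -0.998 over 18 tested genes, 16 of them negative. It also held genes that are not proteases: the inhibitor genes Timp1 (-2.53), Timp2 (-1.25) and Timp3 (0.04), and the enhancer gene Pcolce (-1.46). Timp1, Timp2 and Pcolce are among the lower genes counted next, and Pcolce is among the DESeq2 calls. At an unadjusted p under 0.05, 12 were lower, where 10.9% of all tested genes were. By edgeR 0 were called, and DESeq2 called 5 lower, where it called 3.34% of all genes lower. Bmp1, the protease that removes the propeptide of biglycan and of procollagens, was at 210, 395 and 184 CPM with vehicle and 93.5, 121 and 37.2 CPM with estrogen, without overlap (log2 fold change -1.65 ± 0.47, edgeR adjusted p = 0.207). Mmp3, a stromelysin, was at -1.04 ± 0.31 and Mmp9, a gelatinase, at -0.85 ± 0.25.

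Among 20 tested proteoglycans outside the family, the median was -0.45 with 15 negative and 5 positive. At an unadjusted p under 0.05, 8 were lower, where 10.9% of all tested genes were. By edgeR 0 were called, and DESeq2 called 1 lower, where it called 3.34% of all genes lower. Gpc3, a glypican, was at -1.76 ± 0.42 and, without vehicle replicate 2, at -1.10. Vcan, the large hyaluronan-binding proteoglycan versican, was at 128, 103 and 48.6 CPM with vehicle and 38.4, 38.8 and 5.64 CPM with estrogen (log2 fold change -1.76 ± 0.68, edgeR adjusted p = 0.222). Srgn, the serglycin gene of blood cells, was at -0.89 ± 0.28 and at -0.48 without vehicle replicate 1. Sdc2, a syndecan, was at -0.42 ± 0.13. Set side by side, the 9 small leucine-rich proteoglycans had a median of -1.26, and no test compared that list with these.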

How the data were processed

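RNA of 6 iWAT libraries was measured by RNA sequencing. The deposited table holds raw counts of reads for each gene, with its coordinates and length. HISAT2, featureCounts and the mm10 build are named in the submitters' processing notes. Versions, strand setting, multimapping and annotation release: not given in the sources used here. Without the strand setting, reads of overlapping antisense genes cannot be told apart.

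Groups and replicate numbers came from the sample titles. The deposited column numbers differ from them and were matched through the sample descriptions. Libraries were scaled by TMM, genes were filtered by the filterByExpr defaults (15591 kept), and the groups were compared with the quasi-likelihood test of edgeR 4.0.16 in R 4.3.3. Its p-values were adjusted by Benjamini-Hochberg across the tested genes (threshold 0.05), and no block was fitted. A log2 fold change is estrogen relative to vehicle, and its SE was derived from the F statistic. The test was tested on simulated data. Alternatives used DESeq2 1.42.0 and limma 3.58.1. DESeq2 gave an adjusted p for 14026 genes. Profiles used log2 CPM with a prior count of 2, and ratios log2 CPM without one. The chi-square per degree of freedom between libraries of a group lay between 41.7 and 88.6 over genes with at least 10 counts. A count of 3, taken as the floor, equals 0.130 to 0.209 CPM, and covers counting error only.

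Gene models came from GENCODE M21 on the same build, and the exon bases of all 9 genes equalled the deposited lengths. The members, the gene lists and the rules were chosen with earlier results of these data known. Genes named beside the 9 were up to 3 per list with the smallest unadjusted p and a mean log2 CPM of at least 1, the 5 nearest profiles, and a set kept whatever its values (Ecm2, Kera, Epyc, Optc, Pdgfra, Col1a1, Col3a1, Col6a1, Bmp1, Tgfb1, Tlr2, Tlr4 and Vcan). Cilp, Comp, Scx, Xylt2, Sox9, Alpl, Pcolce, Timp1, Timp2 and Timp3 were named after their values were seen. Scaling, filter, tool (DESeq2, limma-voom), a replicate block and the omission of single libraries were varied. Leaving out both vehicle replicate 2 and estrogen replicate 3, and leaving libraries out of the DESeq2 fit and of the ratios, were chosen after seeing the data.

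Marker lists not described in the report gave these sums. The 7 T cell markers lay at 3.09 to 5.81 CPM with vehicle and 5.43 to 73.0 CPM with estrogen, the 7 neutrophil markers at 32.8 to 164 and 27.0 to 33.9 CPM, the 6 Schwann cell markers at 65.2 to 86.2 and 72.4 to 98.4 CPM, and the 6 mesothelial markers at 2.88 to 3.86 and 3.99 to 6.17 CPM.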

Additional observations from a re-analysis of the deposited data

How the results depend on the processing

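Scaling, the low-count filter and limma-voom left 0 members called, with medians of -1.28 to -1.21. DESeq2 called 854 genes (386 higher and 468 lower), 4 members and 24 of 130 partner genes (22 lower and 2 higher). Leaving out 1 library at a time gave 0 to 13 genes called by edgeR (13 without estrogen replicate 2). Each of these fits called 0 members and 0 to 1 partner genes (Chst3), with a members' median of -1.50 to -0.77. Members lower at an unadjusted p under 0.05 numbered from 3 without vehicle replicate 2 (5.04% of all genes) to 7 without vehicle replicate 1 (8.83%). Over these fits that share of all genes ran from 5.04 to 11.1%. Members called lower by DESeq2 numbered from 1 without vehicle replicate 2 (0.13% of all genes) to 5 without vehicle replicate 1 (2.13%). The highest DESeq2 share of all genes was 4.72%, without estrogen replicate 2, where 3 members were called. Leaving out both vehicle replicate 2 and estrogen replicate 3, chosen after seeing the data, moved the median to -0.50, where the SD of the median between replicates was 0.58. Podn changed sign without vehicle replicate 3 (0.25), estrogen replicate 1 (0.0082) and estrogen replicate 2 (0.11), ranging from -0.36 to 0.25 over the 6 omissions, and the other 8 genes stayed negative in each alternative run. By CPM not divided by length, 5 of 9 genes kept their rank. The causes were not tested.

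With the replicate number as a replicate block, 0 genes and 0 members were called, the median was -1.24 and the smallest adjusted p of a member 0.0873. Same-numbered libraries correlated in their deviations from the group mean at -0.12, 0.16 and 0.29, and not every library correlated best with its own number. Deviations within so small a group depend on each other, so these values cannot decide whether same-numbered libraries were paired. The labels state no pairing.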
